A study of Mus musculus with 4 samples.

Results

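The 9 genes described here encode the constant regions of the mouse antibody heavy chains of IgA (Igha), IgM (Ighm), IgD (Ighd) and IgG (Ighg1, Ighg2b, Ighg2c and Ighg3), the constant region of the kappa light chain (Igkc) and the joining chain (Jchain). They were chosen by gene symbol, and all 9 were found among the 32285 genes of each of the 4 matrices. Their transcripts were followed in plasma cells and B cells, where they are made, and their UMIs were counted in the other cells of each library, where free RNA is a possible source that was not tested.

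The samples were single-cell RNA libraries (10x Genomics 3' v3) of mouse pancreas, 1 library per group. Both tumours were grown from KPC cells, a mouse pancreatic cancer line, placed in a pancreas that had first been tied off with a suture. The AF12198-treated tumour came from mice given weekly intraperitoneal injections of AF12198, a peptide that blocks the interleukin-1 receptor IL1R1, and the control tumour from mice given saline in the same way. The ligated pancreas carried the suture, which occludes the duct and brings on pancreatitis, without tumour cells, and the normal pancreas had neither. Tissue was taken at 4 weeks. The strain, age and number of mice behind a library were not given in the sources used here. With 1 library per group and no replicate, no test was made, and all 95% intervals below cover counting error only.

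Plasma cells are the final stage of the B cell lineage and secrete a single antibody in bulk, so that immunoglobulin transcripts can make up a large part of their RNA. A B cell that has not been activated carries IgM and IgD from the same transcript, and activated cells can switch the heavy-chain gene to IgG, IgE or IgA while they keep the variable region. IgA and IgM are joined into larger units by the J chain, which forms disulfide bonds with a cysteine in the tail of the secreted heavy chain, and IgA is the main antibody of mucosal surfaces.

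That cysteine separates IgA and IgM from the IgG chains at the level of the transcript, and it is shown here because Jchain levels are later given by isotype. The last 60 coding bases of the secreted form, stop codon included, are printed 5′ to 3′ from GENCODE transcripts on GRCm38 (the assembly also called mm10). Capitals mark a TGC cysteine codon in the second-last position before the stop, which Igha and Ighm hold and the IgG genes do not.
Igha (chr12:113258768-113258827, minus strand): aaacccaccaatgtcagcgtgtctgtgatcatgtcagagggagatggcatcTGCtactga
Ighm (chr12:113420867-113420926, minus strand): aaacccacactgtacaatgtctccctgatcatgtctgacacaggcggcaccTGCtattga
Ighg1 (chr12:113328976-113329035, minus strand): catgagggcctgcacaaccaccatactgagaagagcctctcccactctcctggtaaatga
Ighg2b (chr12:113306389-113306448, minus strand): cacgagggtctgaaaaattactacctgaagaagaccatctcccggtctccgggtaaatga
Ighg2c (chr12:113287389-113287448, minus strand): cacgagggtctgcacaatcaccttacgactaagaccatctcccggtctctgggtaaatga
Ighg3 (chr12:113359665-113359724, minus strand): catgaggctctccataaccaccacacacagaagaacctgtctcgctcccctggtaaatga

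The 7 heavy-chain genes lie in a row on the minus strand of chromosome 12, from Ighm at chr12:113418558-113422730 to Igha at chr12:113254830-113260236. Igkc is on the plus strand at chr6:70726435-70726966 and Jchain on the minus strand at chr5:88519809-88527891. The IgG genes resemble each other, so reads could in principle be shared between them. Ighg2b and Ighg2c were the closest pair, with 85.8% identical coding bases in an alignment of their secreted transcripts, against 74.2% to 76.4% for the other IgG pairs. Of the 50-base windows of the secreted Ighg2b transcript, 5.26% were also found in that of Ighg2c. No 50-base window was shared between the last 300 bases of the 2 transcripts, where a 3' library has most of its reads. The membrane forms were not compared in this way, and those of Ighg2b and Ighg2c had identical last 60 coding bases. Reads of membrane forms could therefore be shared between these 2 genes. In the cells called Ighg2b, Ighg2c made up 0.899% of the heavy-chain UMIs (unique molecular identifiers, 1 per captured transcript) in the AF12198-treated tumour and 0.207% in the control tumour.

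After filtering, 18875 cells of the AF12198-treated tumour, 19235 of the control tumour, 1124 of the ligated and 1771 of the normal pancreas were kept, with medians of 2298, 2035, 2216 and 1589 UMIs. Cells were clustered without any immunoglobulin gene or Jchain, so the 9 genes did not choose the cells. Cluster names come from marker genes and carry the ending -like, and a different way of naming could move the shares. The lowest deposited barcode of the control tumour had 760 UMIs, and that of each other library 500. At most 129 cell barcodes were shared by 2 libraries, which is 0.591% of the AF12198-treated and 0.556% of the control tumour.

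Plasma-like cells were fewer in the AF12198-treated tumour. They numbered 67 of its cells (0.355%, exact binomial interval 0.275 to 0.451), 294 in the control tumour (1.53%, 1.36 to 1.71), 11 in the ligated pancreas (0.979%, 0.490 to 1.74) and 2 in the normal pancreas (0.113%, 0.0137 to 0.407). The share in the AF12198-treated tumour was 0.232 of that in the control tumour (0.175 to 0.304). Plasma-like cells formed 1 cluster, in which 11 of 13 plasma cell markers were raised. Xbp1, the transcription factor that builds the secretory apparatus, had a UMI in 100% of these cells in the AF12198-treated tumour and 95.2% in the control tumour, and Mzb1, an endoplasmic reticulum cochaperone of antibody assembly, in 92.5% and 88.4%. In the normal pancreas 9 of the 13 markers had a UMI, and Sdc1, the syndecan used to sort plasma cells, had none. B-like cells, with all 16 B cell markers raised, numbered 475 in the AF12198-treated tumour (2.52%), 636 in the control tumour (3.31%), 2 in the ligated and 5 in the normal pancreas. Their share in the AF12198-treated tumour was 0.761 of that in the control tumour (0.674 to 0.859).

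Over all kept cells, antibody transcripts were lower in the AF12198-treated than in the control tumour, and the isotypes present differed between the libraries with and without tumour. Igha stood at 595, 2976, 1.51 and 0 CPM (UMIs per 1000000) in the AF12198-treated tumour, the control tumour, the ligated pancreas and the normal pancreas. By UMI counting alone, the 0 in the normal pancreas allows up to 0.267 CPM, which leaves out the error in its 2 plasma-like cells. IgA transcripts were abundant in both tumours and near or at 0 in the 2 libraries without tumour. Those 2 libraries held only 11 and 2 plasma-like cells, too few to show that IgA cells were absent from the tissue.
Ighg1, the IgG gene called in the most plasma-like cells below, stood at 333, 2181, 1080 and 0.356 CPM in the same order of libraries. Ighg2b stood at 145, 988, 1438 and 0 CPM, and Ighg2c at 174, 1129, 0.188 and 0 CPM. Ighg2b is the member whose level in the ligated pancreas exceeded that in both tumours. Ighg3, another IgG gene, stood at 29.5, 52.4, 0 and 0 CPM.
Ighm, the first heavy chain of every B cell, stood at 209, 500, 12.4 and 107 CPM, and Ighd, its partner on resting B cells, at 7.0, 8.32, 0.188 and 0.534 CPM. Ighm was the heavy chain with the highest level in the normal pancreas. Igkc, the light chain of most mouse antibodies, stood at 2992, 7954, 2684 and 137 CPM, and Jchain at 256, 807, 99.1 and 2.85 CPM. The 9 genes together made up 4740, 16597, 5315 and 247 CPM.

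**Figure D1:**
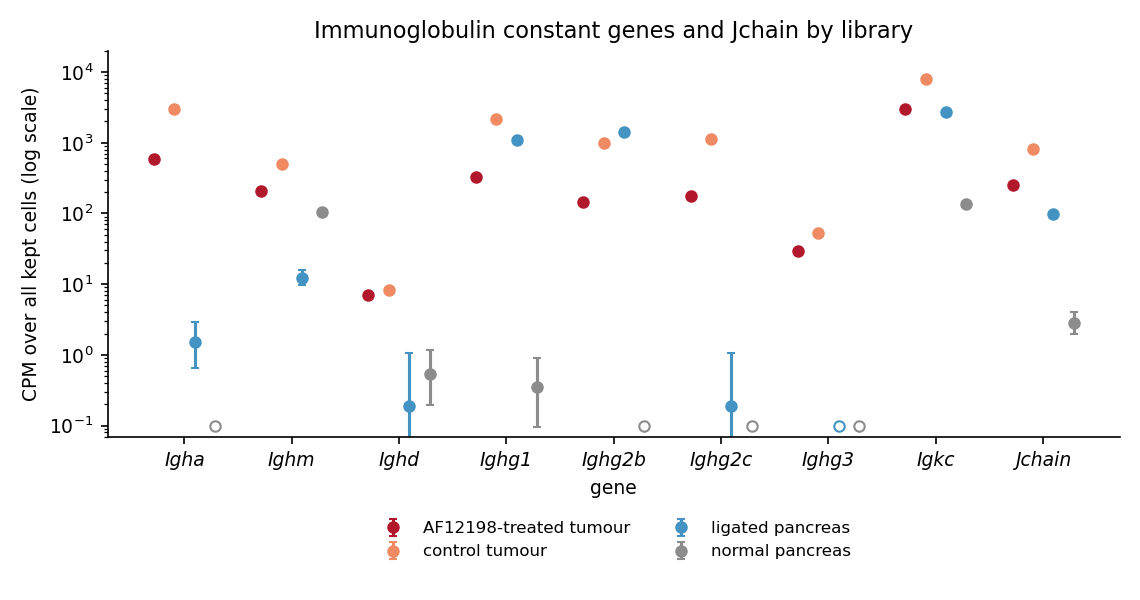
Level of each of the 9 genes over all kept cells (CPM, log scale), with points for the AF12198-treated tumour, the control tumour, the ligated pancreas and the normal pancreas, bars for exact 95% Poisson intervals and open circles at the foot for 0 UMIs. Igha stands at 595 and 2976 CPM in the AF12198-treated and control tumour and at 1.51 and 0 CPM in the ligated and normal pancreas, while Ighg2b is highest in the ligated pancreas at 1438 CPM.

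Called here means a CPM ratio past 2-fold among genes with at least 5 UMIs in the pair of libraries and 5 CPM in 1 of them. Between the AF12198-treated and the control tumour, 7 of the 9 genes were called lower, where 10.7% of all 11063 genes tested were, and 0 higher, where 2.41% were. The ratio was 0.147 for Ighg2b (0.144 to 0.150), 0.153 for Ighg1, 0.154 for Ighg2c, 0.20 for Igha (0.198 to 0.202), 0.318 for Jchain, 0.376 for Igkc and 0.417 for Ighm. Ighg3 at 0.563 and Ighd at 0.841 were not past 2-fold. The median log2 ratio of the 9 genes was -1.65, beside -0.36 over all genes tested. Fewer plasma cells and less RNA per cell cannot be told apart in these sums, and the share of plasma-like cells moved with them.
Of the lambda light chains, Iglc2 (8.74 against 36.2 CPM, AF12198-treated against control tumour) and Iglc3 (10.2 against 53.5 CPM) were called lower, while Iglc1 stood at 213.2 CPM in the AF12198-treated and 212.5 CPM in the control tumour.

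Between the control tumour and the ligated pancreas, 8 of the 9 genes were called higher, where 12.9% of 12613 genes were (23.1% were lower), with Ighg2b at a ratio of 0.6875 (0.6715 to 0.704) as the exception. Igha, Ighd, Ighg2c and Ighg3 passed the 5 CPM filter only through the control tumour, so they could not be called lower. The share of plasma-like cells in the control tumour was 1.56 times that in the ligated pancreas (0.860 to 3.16). Igha stood 1978-fold higher in the control tumour, on 8 UMIs in the ligated pancreas (interval 1004 to 4581). Ighg3, with no UMI there, stood at least 92.9-fold higher when the ligated library is set to 3 counts. This interval and this bound count UMIs and leave out the error in the 11 plasma-like cells of the ligated pancreas. IgA cells of the control tumour had a median of 1832 heavy-chain UMIs each, so single cells could move such ratios far. Ighg1 was just past the threshold at 2.02-fold, and came to 1.87-fold with called doublets kept and 1.85-fold over all deposited barcodes.
Between the ligated and the normal pancreas 5 of the 9 genes passed the filter on low values. Of these, 4 were called higher in the ligated pancreas, where 13.9% of 12427 genes were, and Ighm was called lower, where 7.27% were. Ighg1, Ighg2b and Jchain passed the 5 CPM filter only through the ligated pancreas, so they could not be called lower. Ighg2b was at least 5384-fold higher against 3 counts in the normal library. Of its 7642 UMIs in the ligated pancreas, 5318 and 2137 lay in 2 cells, and this bound leaves out the error in so few cells. Ighg1 stood at 1080 CPM in the ligated against 0.356 CPM in the normal pancreas. Ighm stood at 12.4 CPM in the ligated against 107 CPM in the normal pancreas, a ratio of 0.116 (0.0895 to 0.149). Of the 1198 Ighm UMIs of the normal pancreas, 1002 lay in 2 plasma-like cells and 165 in 5 B-like cells. The interval counts UMIs and leaves out the error in so few cells.

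Most member UMIs came from very few cells. Plasma-like cells held 89.7% of them in the AF12198-treated tumour, 88.0% in the control tumour, 95.7% in the ligated and 87.4% in the normal pancreas. Ighm and Ighd differed from the other members. In the AF12198-treated tumour 37.1% of the Ighm UMIs lay in plasma-like cells, 14.2% in B-like cells and 48.7% in other classes, against 78.9%, 6.56% and 14.6% in the control tumour. In the AF12198-treated tumour 1 epithelial-like barcode held 2969 and 1 barcode of an unnamed cluster 2420 of the Ighm UMIs in other classes. Without barcodes of other classes with 100 or more member UMIs, a setting chosen after seeing the data, the shares were 53.1%, 20.3% and 26.6% in the AF12198-treated and 79.6%, 6.62% and 13.8% in the control tumour. Ighd lay mostly in B-like cells, with 84.5% of its UMIs in the AF12198-treated and 80.7% in the control tumour.

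Within single plasma-like cells the heavy chain was nearly pure. A cell was given an isotype when it had at least 10 heavy-chain constant UMIs and 1 gene held at least 80% of them. Called in this way were 65 of 67 cells in the AF12198-treated tumour, 292 of 294 in the control tumour, 11 of 11 in the ligated and 2 of 2 in the normal pancreas. The top gene held a median of 99.9% of a cell's heavy-chain UMIs in the AF12198-treated and 99.6% in the control tumour. Such a cell had a median of 1577 heavy-chain UMIs in the AF12198-treated tumour and 1574 in the control tumour. Immunoglobulin genes took a median of 48.7% of its UMIs in the AF12198-treated tumour, 44.0% in the control tumour, 26.1% in the ligated and 23.7% in the normal pancreas. The median plasma-like cell had 13670 UMIs in the AF12198-treated tumour, 7748 in the control tumour, 1941 in the ligated and 8068 in the normal pancreas.

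IgA was the most frequent single isotype in both tumours. It was called in 33 of 65 cells of the AF12198-treated tumour (50.8%, interval 38.1 to 63.4), in 103 of 292 cells of the control tumour (35.3%, 29.8 to 41.1), in 0 of 11 in the ligated pancreas, which allows up to 27.3%, and in 0 of 2 in the normal pancreas. The 4 IgG genes together were called in 30 cells of the AF12198-treated tumour (46.2%, 33.7 to 59.0), in 177 of the control tumour (60.6%, 54.8 to 66.3) and in all 11 of the ligated pancreas. The intervals of the tumours overlap for both classes. With plasma cells picked by a gate on marker genes in place of clusters, which left 8 called cells in the AF12198-treated and 21 in the control tumour, the IgA share was 25% and 42.9%, the opposite order.
By gene, Ighg1 was called in 17, 88 and 9 cells of the AF12198-treated tumour, the control tumour and the ligated pancreas, and Ighg2b in 6, 38 and 2. Ighg2c was called in 6 cells of the AF12198-treated and 48 of the control tumour, Ighg3 in 1 and 3, and Ighm in 2 and 12. Both plasma-like cells of the normal pancreas were called Ighm. No cell of any library was called Ighd.

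**Figure D2:**
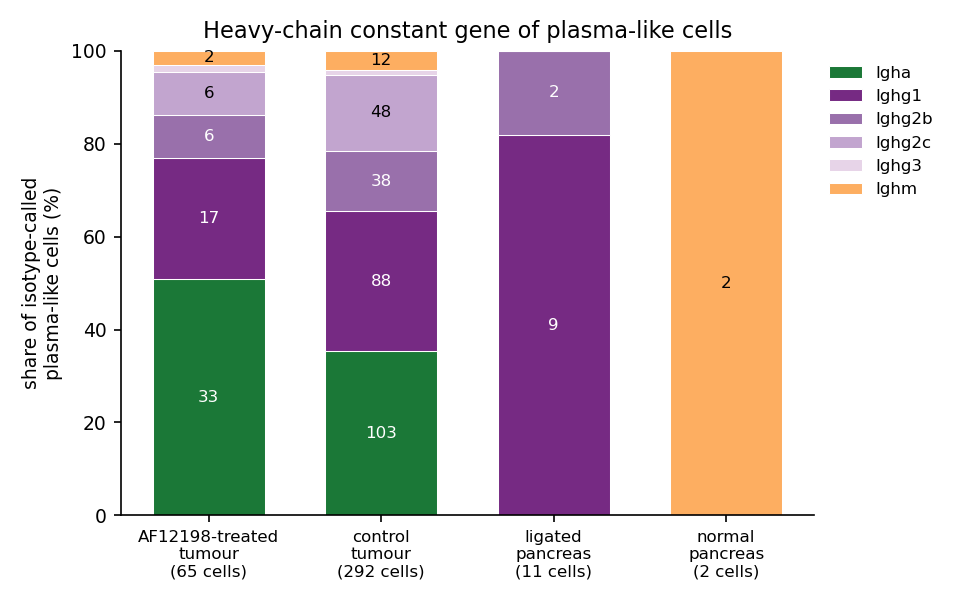
Share of isotype-called plasma-like cells by heavy-chain constant gene (%), with a stacked bar per library and the number of cells printed in the larger segments. Igha holds 50.8% of 65 cells in the AF12198-treated tumour and 35.3% of 292 in the control tumour, the 11 cells of the ligated pancreas are Ighg1 or Ighg2b, and the 2 cells of the normal pancreas are Ighm.

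In the ligated pancreas the level of a gene and the number of its cells parted. Only 3 of the 11 plasma-like cells had over 1000 UMIs of heavy chain, with 5335, 4061 and 2157, and the others had 83 to 283. The cells with 5335 and 2157 were the Ighg2b cells, so Ighg2b held 57.2% of the heavy-chain UMIs but 2 of 11 cells, and the highest cell alone held 40.9%. The stricter cell filter left 3 called cells, of which 33.3% were Ighg1. Ighe, the heavy chain of IgE and no member, had 57 UMIs in these cells, of which 53 lay in an Ighg1 cell with 4004 Ighg1 UMIs. Over all kept cells Ighe had 1, 12, 58 and 0 UMIs in the AF12198-treated tumour, the control tumour, the ligated and the normal pancreas.
In the tumours no single cell weighed as much, with the highest holding 4.90% of the heavy-chain UMIs of plasma-like cells in the AF12198-treated and 1.27% in the control tumour.

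Jchain followed the isotype in both tumours. Per 10000 UMIs that are not from immunoglobulin genes, IgA cells had a median of 651 Jchain UMIs in the AF12198-treated tumour (lowest 58.2, highest 2366, 33 cells) and 654 in the control tumour (30.9 to 2397, 103 cells). IgG cells had a median of 144 in the AF12198-treated tumour (17.7 to 419, 30 cells) and 122 in the control tumour (0 to 861, 177 cells). IgM cells had a median of 784 in the AF12198-treated tumour (2 cells) and 569 in the control tumour (1.35 to 1571, 12 cells). The IgA median was thus 4.52 times the IgG median in the AF12198-treated tumour and 5.34 times in the control tumour, while single cells of the 2 classes overlapped. The isotypes whose tail holds the cysteine codon printed above were the ones with more Jchain, although nearly all IgG cells also had Jchain UMIs, with 0 cells without any in the AF12198-treated and 6 of 177 in the control tumour.
Among the IgG genes of the control tumour the medians were 113 for Ighg1, 148 for Ighg2b, 133.5 for Ighg2c and 89.3 for Ighg3. In the ligated pancreas the 11 IgG cells had a median of 44.9 (14.3 to 344), and in the normal pancreas 1 IgM cell had 24 Jchain UMIs and the other 0.

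**Figure D3:**
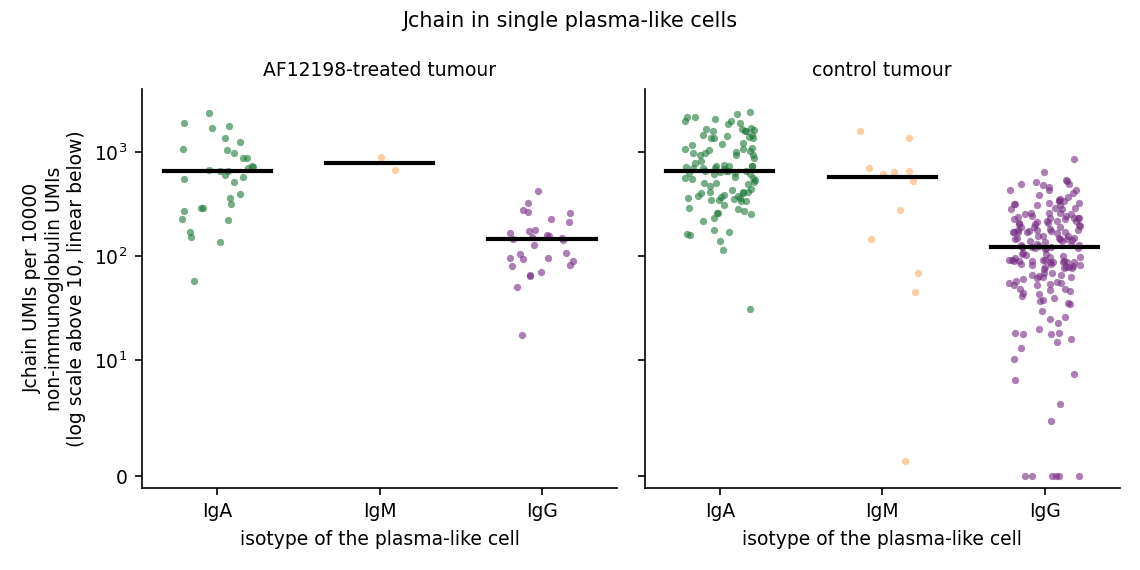
Jchain UMIs per 10000 non-immunoglobulin UMIs in single plasma-like cells of the AF12198-treated tumour (left) and the control tumour (right), by isotype, on a scale that is logarithmic above 10 and linear below, with black lines for medians. The medians of IgA cells are 651 and 654 and those of IgG cells 144 and 122 in the AF12198-treated and control tumour.

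The light chain was kappa in nearly all plasma-like cells. A cell was called kappa or lambda when 1 of them held at least 80% of at least 10 light-chain constant UMIs. Kappa was called in 64 cells of the AF12198-treated tumour, 281 of the control tumour, 11 of the ligated and 2 of the normal pancreas. Lambda was called in 3 cells of the AF12198-treated and 11 of the control tumour. In the control tumour 1 cell was mixed and 1 had too few UMIs. The lambda gene Iglc1 stood at 20462 CPM in the plasma-like cells of the AF12198-treated tumour and 5944 CPM in those of the control tumour, on few lambda cells. No plasma-like cell of the ligated or normal pancreas had more lambda than kappa UMIs.

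A heavy-chain variable segment, Ighv1-81, recurred in the control tumour. In 99 of its plasma-like cells a single segment could be called, from at least 10 variable-segment UMIs, and it was Ighv1-81 in 25 (25.3%, interval 17.1 to 35.0), against 0 of 38 in the AF12198-treated tumour, with 9.25% as the upper end of the interval. Of the 25 cells, 16 were IgA, 6 Ighg2c, 2 Ighg2b and 1 Ighg1. The next segments in the control tumour, Ighv1-75 and Ighv1-19, were called in 5 and 4 cells, and all 5 of Ighv1-75 were Ighg2c. In the AF12198-treated tumour 26 different segments were called in 38 cells, the most frequent, Ighv1-82 and Ighv5-16, in 3 cells each. Ighv1-81 UMIs were found in 2 plasma-like cells there. Segments of the same variable family resemble each other, and a 3' library reads them seldom, so these calls are uncertain. They were looked at after the values had been seen.

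Beyond isotype, IgA and IgG plasma-like cells of the same tumour differed in single genes of homing, survival and protein folding, Ccr10, Tnfrsf17 and Txndc5 among them. This comparison was added after the data had been examined, and CPM is taken here over UMIs that are not from immunoglobulin genes. Ccr10, the receptor for the mucosal chemokines CCL27 and CCL28, stood at 215.5 CPM in IgA and 26.4 CPM in IgG cells of the AF12198-treated tumour, and at 250.6 and 11.4 CPM in those of the control tumour. It had a UMI in 60.6% of IgA and 6.67% of IgG cells of the AF12198-treated tumour, in 47.6% and 4.52% of those of the control tumour, and in 0.0135% and 0.0334% of the neutrophil-like cells of these tumours.
Txndc5, a protein disulfide isomerase of the endoplasmic reticulum, stood at 2470 CPM in IgA and 538 CPM in IgG cells of the AF12198-treated tumour, and at 3001 and 616 CPM in those of the control tumour. These were ratios of 4.59 (interval from 3.72) and 4.87 (from 4.41). Tnfrsf17, the survival receptor BCMA, stood at 156 CPM in IgA and 36.9 CPM in IgG cells of the AF12198-treated tumour, and at 79.8 and 12.5 CPM in those of the control tumour. All 3 genes thus stood higher in IgA cells of both tumours.
Itgb7, the integrin subunit of the gut homing receptor, had 25 UMIs in 14 of 33 IgA cells and 0 UMIs in the 30 IgG cells of the AF12198-treated tumour, at least 6.31-fold higher against 3 counts in the IgG cells. In the control tumour it stood at 73.2 CPM in IgA and 30.8 CPM in IgG cells. Cd93, a surface protein of long-lived plasma cells, stood at 140 CPM in IgA and 15.8 CPM (3 UMIs) in IgG cells of the AF12198-treated tumour, and at 117.5 and 64.9 CPM in those of the control tumour. Unlike Ccr10, both genes were also found in neutrophil-like cells of the AF12198-treated and control tumour. Itgb7 stood there at 12.4 and 13.9 CPM, and Cd93 at 29.0 and 37.5 CPM.
By list, 6 of the 11 plasma cell survival and homing genes that passed the filter were called higher in IgA cells of the AF12198-treated tumour and 0 lower, where 18.2% and 9.79% of the 7081 genes tested were. Of 20 antibody secretion genes 3 were called higher, Txndc5 and Fkbp11 (551 against 216 CPM, IgA against IgG) among them, and 1 lower, Irf4, a transcription factor of plasma cell fate (39.9 against 89.7 CPM, 10 against 17 UMIs, ratio interval 0.182 to 1.03). In the control tumour 6 of 17 survival and homing genes were called higher in IgA cells and 2 lower, where 8.07% and 11% of 10204 genes were, and of the 20 secretion genes only Txndc5 was called, higher. The share of secretion genes called higher was thus not above that of all genes in either tumour. Fkbp11 there stood at 275 CPM in IgA and 274.5 CPM in IgG cells. Of 7 immunoglobulin transport and Fc receptor genes, 5 were called higher in IgA cells of the AF12198-treated tumour and 0 lower, against 0 higher and 3 lower in the control tumour. The difference between the tumours was not tested. Fcgr3, a low-affinity IgG receptor of myeloid cells, stood at 67.9 CPM in IgA and 26.4 CPM in IgG cells of the AF12198-treated tumour, and at 19.96 and 64.9 CPM in those of the control tumour. These values rest on 17 and 5 UMIs in the AF12198-treated tumour, in 21.2% and 16.7% of the cells. In the control tumour they rest on 9 and 57 UMIs, in 7.77% and 14.1% of the cells. Macrophage and monocyte markers, 15 genes summed, stood at 2937 CPM in IgA and 6392 CPM in IgG cells of the AF12198-treated tumour and at 2273 and 5157 CPM in those of the control tumour, and their part in these differences was not tested.

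**Figure D4:**
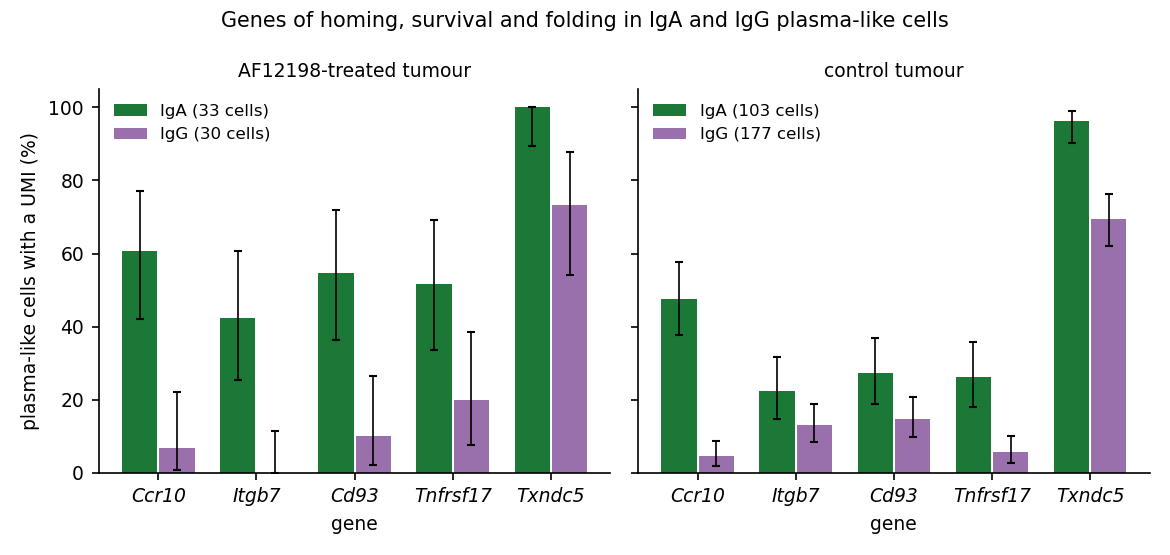
Share of IgA and IgG plasma-like cells with a UMI of each gene (%), in the AF12198-treated tumour (left, 33 IgA and 30 IgG cells) and the control tumour (right, 103 and 177 cells), with bars for exact 95% binomial intervals. Ccr10 is found in 60.6% of IgA against 6.67% of IgG cells in the AF12198-treated tumour and in 47.6% against 4.52% in the control tumour.

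Within plasma-like cells the tumours differed less than over all cells. Of the 8 members that passed the filter, 0 were past 2-fold between the AF12198-treated and the control tumour, where 7.26% of 8675 genes were higher and 22.6% lower. Igha stood at 56646 CPM in the AF12198-treated and 82280 CPM in the control tumour (ratio 0.689, 0.682 to 0.695), Ighg1 at 30509 and 56115 CPM (0.544), and Ighg2b at 13887 and 27449 CPM (0.506). Ighg3 stood at 2846 CPM in the AF12198-treated tumour, of which 1 cell gave nearly all, and 1427 CPM in the control tumour. Igkc stood at 268724 and 214204 CPM (1.25) and Jchain at 23567 and 22639 CPM (1.04).
With CPM taken without immunoglobulin UMIs, Ighg2b was called lower at a ratio of 0.499, where 26.3% of 10112 genes were lower and 7.34% higher, and no other call of a member changed.
Among 20 antibody secretion genes, Ssr4, a subunit of the translocon-associated complex, was called higher in plasma-like cells of the AF12198-treated tumour (1996 against 662 CPM in the control tumour), as was Mzb1 (2256 against 1091 CPM), and Irf4 was called lower (33.4 against 104.5 CPM). Ssr4 was also called higher over all cells of the AF12198-treated tumour (262.5 against 119 CPM) and in its B-like cells (144 against 51.6 CPM). Tnfrsf17 was called higher in plasma-like cells of the AF12198-treated tumour (57.5 against 19.01 CPM). Of the class switching and germinal centre genes, 1 of 9 was called higher, Batf, on 5 UMIs in the AF12198-treated and 2 in the control tumour, and 4 lower, Bcl6 (1 against 20 UMIs) among them. Erythroid markers stood at 44.9 CPM in plasma-like cells of the AF12198-treated and 2677 CPM in those of the control tumour.

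B-like cells carried the IgM and IgD pair at close levels in both tumours. Ighm stood at 1982 CPM in the AF12198-treated and 2061 CPM in the control tumour (ratio 0.962, interval from 0.910), and Ighd at 396 and 422 CPM (0.938). Ighm had 5.00 UMIs per Ighd UMI in the AF12198-treated and 4.88 in the control tumour. Both genes had a UMI in 52.6% of B-like cells of the AF12198-treated and 43.2% of those of the control tumour. After thinning each cell to 1000 UMIs, which left out 32 of 475 and 120 of 636 cells, Ighm had a UMI in 75.2% (70.9 to 79.1) of B-like cells of the AF12198-treated tumour and 76.7% (72.9 to 80.3) of those of the control tumour, and Ighd in 37.5% and 37.4%. In neutrophil-like cells, which make no antibody, the thinned shares were 5.99% and 11.8% for Ighm and 0.0979% and 0.207% for Ighd. Thinned to 2000 UMIs, Ighm had a UMI in 78.1% of B-like cells of the AF12198-treated and 87.9% of those of the control tumour. Unthinned, Ighm had a UMI in 87.8% of B-like cells of the AF12198-treated tumour (median 1995 UMIs per cell) and 86.2% of those of the control tumour (median 1470).

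Ighg1 and Igha in B-like cells were near or below the level in neutrophil-like cells of the same library. Thinned, Ighg1 had a UMI in 4.74% of B-like and 4.52% of neutrophil-like cells of the AF12198-treated tumour, and in 43.0% and 49.8% of those of the control tumour. Igha had one in 4.74% of B-like and 4.51% of neutrophil-like cells of the AF12198-treated tumour, and in 25.8% and 31.0% of those of the control tumour. Median depths in the AF12198-treated tumour were 1995 UMIs in B-like and 1347 in neutrophil-like cells, and in the control tumour 1470 and 1388. These Ighg1 and Igha shares were not above those of neutrophil-like cells beyond counting error. Macrophage/monocyte-like cells had lower shares, in the AF12198-treated tumour 2.16% (1.73 to 2.66) for Ighg1 and 1.86% (1.46 to 2.33) for Igha. In the control tumour they had 34.2% (32.8 to 35.6) and 21.4% (20.2 to 22.7). These intervals lay below those of B-like cells, except for Igha in the control tumour. T-like cells had 3.38% and 3.16% in the AF12198-treated and 44.9% and 29.4% in the control tumour. Ighg2b and Ighg3 in B-like cells of the AF12198-treated tumour were above neutrophil-like cells. Ighg2b had a UMI in 2.48% (1.25 to 4.40) of B-like and 0.653% (0.467 to 0.888) of neutrophil-like cells, and Ighg3 in 0.903% (0.247 to 2.30) and 0.0326% (0.00395 to 0.118). Of the B-like cells with at least 10 heavy-chain UMIs, 1 of 83 in the AF12198-treated and 5 of 160 in the control tumour held mostly 1 switched gene.
Read over sums, 6 of the 9 genes were called lower in B-like cells of the AF12198-treated tumour, where 22.9% of 9930 genes were (3.87% were higher). They were Ighg2c (7.03 against 1959 CPM in the control tumour), Ighg1 (46.1 against 605 CPM), Jchain (17.2 against 152 CPM), Ighg2b, Igha and Igkc (2610 against 5555 CPM). In the control tumour 1 cell of 11155 UMIs held 2135 of the 2507 Ighg2c UMIs, 2841 of the 7107 Igkc UMIs and 79 of the 194 Jchain UMIs of the class. Without that cell Ighg2c stood at 293 CPM, Jchain at 90.7 CPM and Igkc at 3363 CPM in the control tumour, and Igkc was then less than 2-fold apart between the tumours. The Igkc ratio of 0.470 came to 0.982 with the stricter cell filter and 0.815 with called doublets kept. Thinned to 1000 UMIs, Ighg2b, Ighg2c and Jchain in B-like cells of the control tumour were also not above neutrophil-like cells beyond counting error. Ighg2b had a UMI in 17.6% of B-like and 18% of neutrophil-like cells there, Ighg2c in 15.9% and 16.6%, and Jchain in 8.53% and 10.1%. Igkc had one in 92.6% and 78.6%. How far the lower calls reflect B-like cells themselves was not tested.

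Outside the B lineage, member UMIs marked almost every cell of the control tumour. At least 1 member UMI was found in 49.0% of the cells of other classes in the AF12198-treated tumour, 98.6% in the control tumour, 48.4% in the ligated and 4.03% in the normal pancreas. These cells held 8.69%, 11.0%, 4.14% and 2.99% of all member UMIs in that order of libraries. A few barcodes weighed heavily: 5 in the AF12198-treated and 25 in the control tumour had 100 member UMIs or more, and held 53.3% and 18.3% of the member UMIs of the other classes.
In neutrophil-like cells the 9 genes together stood at 410 CPM in the AF12198-treated tumour (399 to 422), 3635 CPM in the control tumour (3597 to 3673) and 766 CPM in the ligated pancreas (627 to 927), where the stricter cell filter gave 314 CPM. The normal pancreas had no such cells. The ratio of the AF12198-treated to the control tumour was 0.113 (0.1095 to 0.116). Most neutrophil-like cells of the AF12198-treated tumour lay in clusters led by Il23a and Tnf (3034 cells) and by Il1f9 and Cxcl3 (2512 cells), and most of the control tumour in a cluster led by Il1r2 and Hdc (3881 cells). Macrophage/monocyte-like cells stood at 177 CPM in the AF12198-treated tumour, 1799 CPM in the control tumour and 880 CPM in the ligated pancreas, and T-like cells at 308, 3418 and 960 CPM. Each of the 3 classes thus stood lower in the AF12198-treated than in the control tumour, as the plasma-like cells did in number.

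The make-up of these UMIs was not that of the plasma-like cells of the same library. In the AF12198-treated tumour Ighg1 had 1.07 UMIs per Igha UMI in neutrophil-like and 0.539 in plasma-like cells, and in the control tumour 1.87 and 0.682. Among heavy-chain UMIs of neutrophil-like cells Ighm took 36.8% in the AF12198-treated and 7.56% in the control tumour, against 6.01% and 5.76% in the plasma-like cells.
The Ighm share also differed between classes of the same tumour. With cells under 10 member UMIs, Ighm had 2.36 UMIs per Igha UMI in macrophage/monocyte-like, 1.70 in T-like and 1.45 in neutrophil-like cells of the AF12198-treated tumour, and 0.733 in endothelial-like, 0.438 in epithelial-like and 0.405 in fibroblast-like cells. In the control tumour the values were 0.422, 0.347 and 0.321 in the same blood-derived classes, and 0.193, 0.197 and 0.193 in the endothelial-like, epithelial-like and fibroblast-like cells. Within each tumour these 3 blood-derived classes had more Ighm per Igha than these 3 tissue classes. Other classes did not all follow this split. In the AF12198-treated and control tumour, natural killer-like cells stood at 3.04 and 0.386, and dendritic-like cells at 2.58 and 0.485. Mast/basophil-like cells stood at 1.5 and 0.273, erythroid-like cells at 0.75 and 0.249, and acinar-like cells at 0.482 and 0.273. The source of these UMIs was not tested.
Ighm at 63.05 CPM in neutrophil-like cells of the AF12198-treated tumour was 0.488 (0.445 to 0.535) of the 129 CPM in the control tumour, whereas Ighg2b at 6.62 CPM was 0.0291 (0.0230 to 0.0364) of 227 CPM. In the ligated pancreas the other classes held 213 Ighg1, 182 Ighg2b, 49 Ighm and 4 Igha UMIs, while its plasma-like cells held no Ighm UMI. Ighm took 27.3% of the heavy-chain UMIs of neutrophil-like and 15.4% of those of macrophage/monocyte-like cells there.

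**Figure D5:**
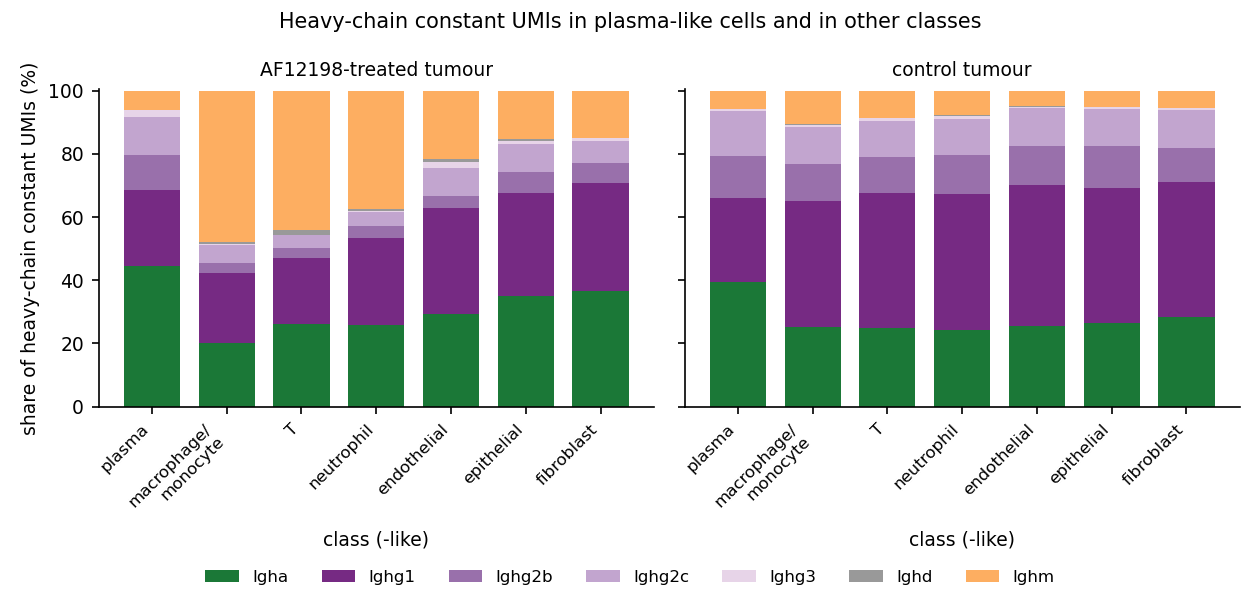
Share of each heavy-chain constant gene among the heavy-chain UMIs of a class (%), in the AF12198-treated tumour (left) and the control tumour (right), with a stacked bar per class. All plasma-like cells are shown, and in the other classes cells under 10 member UMIs. Ighm takes 47.9% in macrophage/monocyte-like and 15.35% in epithelial-like cells of the AF12198-treated tumour, against 10.6% and 5.19% in those of the control tumour.

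A small cluster led by Siglech, which marks plasmacytoid dendritic cells, carried Ighm in most of its cells. It was left unnamed, since markers of several classes were raised in it, and was looked at after its values had been seen. Ighm stood there at 686 CPM in the AF12198-treated tumour (609 to 770, 74 cells) and 922 CPM in the control tumour (826 to 1027, 91 cells), with a UMI in 95.95% and 87.9% of the cells. The lambda gene Iglc3 stood at 325 and 310 CPM, and Igkc at 210.3 and 842 CPM, in 44.6% and 92.3% of the cells. Ighg1 stood at 28.7 and 282.5 CPM, Igha at 11.95 and 210.5 CPM and Jchain at 0 and 52.6 CPM. In the control tumour Igkc, Ighg1 and Igha were thus found in this cluster too, as in the other classes of that library.

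Genes of the secretory apparatus were among those whose levels across classes and libraries were most like the members. Over 36 class-by-library sums of at least 25 cells, the log2(CPM + 1) values of 15331 genes were correlated with those of 4 members, as a description, since sums of the same library share its free RNA. For Igha the 5 highest Pearson correlations were Edem1 (0.80), a mannosidase-like protein of endoplasmic reticulum degradation, Serp1 (0.80), a stress-associated protein of the same organelle, Ly6c2 (0.74), Ncapg (0.73) and Cd79b (0.72). For Ighm they were Serp1 (0.91), Cd79b (0.83), a subunit of the B cell receptor, Hvcn1 (0.82), Ly6c2 (0.79) and Pou2af1 (0.79), a B cell coactivator. For Ighg2b they were Edem1 (0.82), Slpi (0.79), Mzb1 (0.75), Atf6 (0.72) and Gm30211 (0.68), and for Igkc Slpi (0.87), Edem1 (0.80), Mzb1 (0.80), Ly6c2 (0.77) and Serp1 (0.76).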

How the data were processed

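The authors deposited gene-by-cell matrices of raw UMI counts for 4 libraries, 1 per group. Reads were processed with Cell Ranger 6.0.0 on mm10, per the submitters' processing notes, and the annotation release is not given in the sources used here. The members, gene lists and tests were chosen with earlier results of these data known, and the thresholds for naming clusters after the data had been seen.

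Cells were kept with at least 250 genes, at least 500 UMIs and at most 20% mitochondrial UMIs. Scrublet scores in Scanpy 1.11.5 removed 993 cells of the AF12198-treated tumour (the top 5% of scores, since the automatic call marked 1), 2163 of the control tumour, 0 of the ligated and 1 of the normal pancreas. The control matrix had 23189 barcodes and that of the AF12198-treated tumour 21840, which limits the precision of rare cell types less than in the ligated (1165) and normal pancreas (1844). Leiden clustering (igraph 0.11.9, resolution 1) used 2000 variable genes, 40 principal components and 20 neighbours and left out 393 immunoglobulin genes, Jchain included. To name a cluster, at least 3 markers of a class had to be 2-fold above the other cells, each with a UMI in 10% of the cluster or more. This gave 30 clusters, of which 6 stayed unnamed, a Cd8a-led, a Foxp3-led and a Siglech-led one among them.

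Levels are UMIs summed over a class and library per 1000000 UMIs (CPM), with exact Poisson intervals. Ratios are of CPM with exact conditional intervals, shares have exact Clopper-Pearson intervals, and log2 ratios used CPM + 1. A count of 0 was read against 3 counts. Named genes are all 9 members and, from each list, the 3 with the largest absolute log2 ratio among those past 2-fold in a comparison, with the 5 genes of highest correlation for 4 members. Other genes named were chosen after their values were seen. The comparison of IgA with IgG cells was added after the data had been examined. Alternatives were a stricter cell filter (500 genes, 1000 UMIs, 10%), doublets kept, all deposited barcodes, other resolutions, immunoglobulin genes kept in clustering, a marker gate for plasma cells, other isotype thresholds, thinning to 2000 UMIs, CPM without immunoglobulin UMIs and leaving out cells rich in member UMIs. The ratio and isotype steps were tested on simulated data. Python 3.11.15, NumPy 2.4.6, SciPy 1.17.1, pandas 2.3.3, Biopython 1.88 and matplotlib 3.10.9 were used.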

Additional observations from a re-analysis of the deposited data

How the results depend on the processing

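Of 537 values recomputed under 16 settings, 438 stayed within the counting interval of the reported value, and 99 moved further. Counts of genes or cells and the Jchain ratios of IgA to IgG cells were instead allowed 1.5 times. Of these values 0 were labelled reversed, a label open only to ratios past 2-fold in the main setting. A share, a CPM value or a smaller ratio could not get it. Of 191 values of ratios past 2-fold, 187 stayed past it, and the exceptions were the Igkc ratio in B-like cells and the Ighg1 ratio of control tumour to ligated pancreas, both given above. With the stricter cell filter the 9 genes stood at 390 CPM in neutrophil-like cells of the AF12198-treated and 3380 CPM in those of the control tumour. In the control tumour the value was 3676 CPM with immunoglobulin genes kept in clustering, 3022 CPM without cells of 10 or more member UMIs and 3589 CPM without cells of 100 or more, a setting chosen after seeing the data. The Igha ratio of AF12198-treated to control tumour in plasma-like cells was 0.680 with the stricter filter, 0.714 with doublets kept, 0.671 with immunoglobulin genes kept and 0.679 with CPM without immunoglobulin UMIs. Over all cells it was 0.196 with the stricter filter, 0.2085 with doublets kept and 0.205 over all barcodes. A marker gate in place of clusters gave an Igha share of 25% of 8 called cells in the AF12198-treated tumour (interval 3.19 to 65.1) and 42.9% of 21 in the control tumour (21.8 to 66.0), so the order of the tumours turned. With no minimum CPM, the genes past 2-fold between the AF12198-treated and the control tumour were 1357 higher and 3505 lower, against 267 and 1185 with it. They were 3515 and 6183, against 1624 and 2911, between the control tumour and the ligated pancreas, and 3333 and 1842, against 1727 and 904, between the ligated and the normal pancreas. Thinned to 2000 UMIs, Ighm had a UMI in 78.1% (72.2 to 83.2) of B-like cells of the AF12198-treated tumour. In the control tumour it had one in 87.9% (82.4 to 92.2), so the tumours stood further apart than at 1000 UMIs. This setting left out 238 of 475 and 446 of 636 cells. The cause of these shifts was not tested. No paired analysis was possible because each group is 1 library. Plasma-like cells of the ligated and normal pancreas were too few for their isotype shares to be read beyond wide intervals.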
